A study of Mus musculus with 12 samples.

Results

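The 9 genes described here, Dbp, Tef, Hlf, Nfil3, Ciart, Bhlhe40, Bhlhe41, Usp2 and Wee1, are transcriptional regulators and enzymes through which the circadian clock acts on other genes, and they were followed across the livers of 12 male mice, 7 weeks old when dosing began. They were chosen by name. Every non-control probe whose RefSeq transcript belonged to one of them was taken, which gave 17 probes, and each gene was read from its brightest probe by the mean over the 12 arrays. They are 9 of 45616 genes and unnamed transcripts on the array, and 8 of the 26405 that were tested. The arrays were one-colour Agilent microarrays, on which Cy3-labelled liver RNA binds to printed probes and the brightness of a probe measures its transcript.

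The mice were wild type or IAP knockout, in which the Akp3 gene for an intestinal alkaline phosphatase is knocked out (Akp3-/-). Each genotype received either vehicle, carboxymethylcellulose sodium salt at 5 g/L, or the short peptide IIAEK at 600 mg/kg/day, by mouth once a day for 14 days. Livers came from animals fasted 8 h. There were 3 arrays in each of the 4 groups, taken here as 1 array per mouse, and the labels mention no pooling. The labels do not give the hour at which each liver was collected, which is a limit for genes whose level depends on the time of day.

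In liver the clock is a feedback loop in which CLOCK and its partner ARNTL (BMAL1) activate genes through E-boxes in their promoters, and the PER and CRY proteins made from some of those genes shut the activators off again. DBP, TEF and HLF are the PAR bZIP proteins, activators that bind D-boxes and carry the rhythm to genes of drug, bile acid and lipid metabolism. NFIL3 (E4BP4) binds the same D-boxes as a repressor, and its rhythm in liver is known to run opposite to that of DBP. CIART (CHRONO), BHLHE40 (DEC1) and BHLHE41 (DEC2) repress transcription driven by CLOCK and ARNTL. USP2 is a deubiquitinase with a rhythmic transcript, and WEE1 is the kinase that holds back entry into mitosis and is the classic link from the clock to the cell cycle.

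The promoter windows of Ciart, Tef, Dbp and Nfil3, the transcription factors on which the results turn, are shown with their E-boxes, the element that CLOCK and ARNTL bind. A reference table of RefSeq promoters (build GRCm38.p6) held 8 windows for 7 of the 9 genes, each running 250 bases before to 50 after the start of transcription. The windows were searched on both strands for the E-box CACGTG and for the D-boxes TTATGTAA, TTACGTAA, TTATATAA and TTACATAA. These motifs do not overlap one another in these windows. The E-box is in capitals below, and all sequences run 5′ to 3′ along the strand of the gene. The windows lie at chr3:95882179-95882478 on the minus strand (Ciart), chr15:81802423-81802722 and chr15:81811164-81811463 on the plus strand (both starts of Tef), chr7:45704997-45705296 on the plus strand (Dbp) and chr13:52980990-52981289 on the minus strand (Nfil3).
Ciart: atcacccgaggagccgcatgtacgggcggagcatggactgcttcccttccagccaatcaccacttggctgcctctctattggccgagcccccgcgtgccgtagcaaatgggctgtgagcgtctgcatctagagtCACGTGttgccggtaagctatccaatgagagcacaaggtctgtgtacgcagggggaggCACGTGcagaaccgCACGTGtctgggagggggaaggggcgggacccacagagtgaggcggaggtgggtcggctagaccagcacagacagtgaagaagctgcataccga
Tef, upstream start: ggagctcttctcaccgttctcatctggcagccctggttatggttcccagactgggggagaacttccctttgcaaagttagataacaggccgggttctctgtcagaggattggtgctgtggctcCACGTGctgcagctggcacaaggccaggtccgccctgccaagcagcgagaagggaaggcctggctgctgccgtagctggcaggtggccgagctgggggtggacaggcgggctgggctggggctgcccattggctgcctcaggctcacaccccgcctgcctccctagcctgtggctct
Tef, downstream start: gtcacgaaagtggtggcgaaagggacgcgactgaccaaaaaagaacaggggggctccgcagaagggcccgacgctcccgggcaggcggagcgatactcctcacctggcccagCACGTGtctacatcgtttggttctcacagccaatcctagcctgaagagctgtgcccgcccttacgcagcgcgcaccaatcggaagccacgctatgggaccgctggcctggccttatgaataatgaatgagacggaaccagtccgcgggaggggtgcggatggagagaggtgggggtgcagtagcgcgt
Dbp: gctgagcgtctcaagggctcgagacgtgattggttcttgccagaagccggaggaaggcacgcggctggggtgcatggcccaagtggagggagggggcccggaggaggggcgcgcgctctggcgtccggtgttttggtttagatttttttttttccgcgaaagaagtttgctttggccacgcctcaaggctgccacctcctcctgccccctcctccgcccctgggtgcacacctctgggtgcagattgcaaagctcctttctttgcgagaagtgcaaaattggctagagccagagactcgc
Nfil3: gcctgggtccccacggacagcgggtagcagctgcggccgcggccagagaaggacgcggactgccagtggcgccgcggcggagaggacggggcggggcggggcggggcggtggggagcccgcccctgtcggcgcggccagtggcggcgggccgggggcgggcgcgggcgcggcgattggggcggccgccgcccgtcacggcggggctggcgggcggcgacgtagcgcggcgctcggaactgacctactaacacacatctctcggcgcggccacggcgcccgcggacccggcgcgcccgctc
The Ciart window held 3 E-boxes, whose first bases lay 116, 58 and 44 bases before the start. Each Tef window held 1, at 127 and 138 bases before the respective start, and the Bhlhe41 window (chr6:145865371-145865670, minus strand) held 1 at 153. The windows of Dbp, Nfil3, Hlf and Usp2 held none of these letters. Of all 32851 promoter windows of this length, 7.15% held at least 1 E-box and 1.59% a D-box. No D-box was found in the 8 windows. A match describes the letters and not the binding of a factor.

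Some features of the whole array set bear on these genes. The 75th percentile of the signal ranged from 314.6 to 529.4 over the arrays, 56.8% to 61.9% of probes were well above background, and no spot was saturated. Replicate 1 of every group was on one slide and replicates 2 and 3 on another. The first principal component of all tested genes held 55.4% of the variance. On it 4 vehicle arrays (wild-type mice 2 and 3, knockout mice 1 and 3) scored 74.1 to 88.1 and the remaining 8 scored -57.3 to -11.3. The genotype could not be read from the arrays, since neither probe of Akp3 was well above background on any array. Of 10 hepatocyte markers 9 were on the array and all 9 were well above background on every array. Because the samples are bulk liver, fewer cells of a type and less RNA per cell cannot be told apart.

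Dbp was the most variable of the 9 genes. Its level, given here and throughout as log2 of the processed signal minus the log2 of the array's 75th percentile, was 0.51, 4.11 and 2.55 in wild-type vehicle mice 1, 2 and 3, and 1.0, 0.51 and 0.0071 in wild-type mice given IIAEK. In the knockout it was 0.86, 3.37 and 2.26 under vehicle and 1.85, 2.66 and 5.21 under IIAEK. All 3 wild-type mice given IIAEK were low, both vehicle groups ran from low to high, and every knockout mouse given IIAEK lay above every wild-type mouse given it. The group means were 2.39 ± 1.81, 0.51 ± 0.50, 2.16 ± 1.26 and 3.24 ± 1.75 (SD, n = 3) in that order. Between the lowest and the highest mouse lay 5.20 log2 units, or 36.8-fold.

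Tef, the second PAR bZIP activator, was at 4.26, 4.91 and 4.14 in wild-type vehicle mice, 4.30, 4.18 and 3.70 in wild-type mice given IIAEK, 3.46, 4.63 and 4.14 in knockout vehicle mice and 4.41, 4.54 and 5.48 in knockout mice given IIAEK. As with Dbp, the knockout mice given IIAEK all lay above the wild-type mice given it, here by a narrow margin between the closest mice, and the same knockout mouse, replicate 3, was the highest of all 12.

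Hlf, the third member of the PAR bZIP family, followed another order. It was at 1.99, -0.29 and 0.14 in wild-type vehicle mice and at -0.24, 1.43 and 0.07 in knockout vehicle mice, against 1.12, 1.30 and 1.12 in wild-type and 1.0, 1.01 and 1.82 in knockout mice given IIAEK. Its 4 lowest arrays were the 4 vehicle arrays that stood apart on the first principal component. Of the other vehicle mice, wild type 1 was the highest of all 12, and knockout 2 lay above all mice given the peptide except knockout mouse 3.

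Nfil3, the repressor at D-boxes, was at 3.52, 0.80 and 1.95 in wild-type vehicle mice and at 3.23, 3.82 and 3.61 in wild-type mice given IIAEK. It was at 2.68, 3.11 and 2.52 in knockout vehicle mice and at 3.39, 3.15 and 2.49 in knockout mice given IIAEK. Wild-type vehicle mouse 2, second in Dbp and in Tef, was the lowest in Nfil3, and the spread of the wild-type vehicle group (SD 1.36) was wider than that of each other group (0.30 to 0.47). The range over all 12 mice was 3.02 log2 units, or 8.10-fold.

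Ciart, whose protein represses CLOCK and ARNTL and whose promoter window holds 3 E-boxes, had the widest range over the 12 mice after Dbp, at 4.27 log2 units. It was at -3.63, -0.98 and -2.01 in wild-type vehicle mice and at -4.71, -5.00 and -4.75 in wild-type mice given IIAEK. Of the latter, mice 1 and 2 were not well above background, so those values are only upper marks on a low level. In knockout mice it was at -2.45, -3.38 and -3.73 under vehicle and -3.51, -3.01 and -0.73 under IIAEK. The wild-type mice given IIAEK lay below all 9 others, and knockout mouse 3 given IIAEK and wild-type vehicle mouse 2 were the highest, as in Dbp and Tef.

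Bhlhe40, a repressor that competes at E-boxes, varied least between mice of a group among the 8 tested genes. It was at 1.34, 1.63 and 1.95 in wild-type vehicle mice, 0.80, 1.24 and 1.32 in wild-type mice given IIAEK, 1.47, 2.06 and 1.59 in knockout vehicle mice and 1.35, 1.21 and 1.78 in knockout mice given IIAEK. The wild-type mice given IIAEK lay just below the wild-type vehicle mice. Its relative Bhlhe41 was well above background in wild-type vehicle mouse 3 only, at -5.13, and the other 11 arrays, from -7.41 to -5.67, were not, so the gene was not tested and has no measured fold between groups.

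Usp2, the deubiquitinase, was at 1.27, 1.96 and 1.45 in wild-type vehicle mice and 0.74, 0.56 and 0.84 in wild-type mice given IIAEK. It was at 2.02, 0.81 and 0.67 in knockout vehicle mice and 1.24, 1.40 and 1.79 in knockout mice given IIAEK. The wild-type mice given IIAEK were low and lay below both wild-type vehicle mice and knockout mice given IIAEK, while knockout vehicle mice 2 and 3 were as low as they were. Wee1, the mitotic kinase, was at -2.52, -0.99 and -1.52 in wild-type vehicle mice and -2.18, -1.94 and -1.89 in wild-type mice given IIAEK. It was at -1.43, -1.07 and -0.92 in knockout vehicle mice and -1.46, -1.27 and -0.92 in knockout mice given IIAEK. Both knockout groups were high and tight, and wild-type vehicle mouse 1 was the lowest of all.

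**Figure D1:**
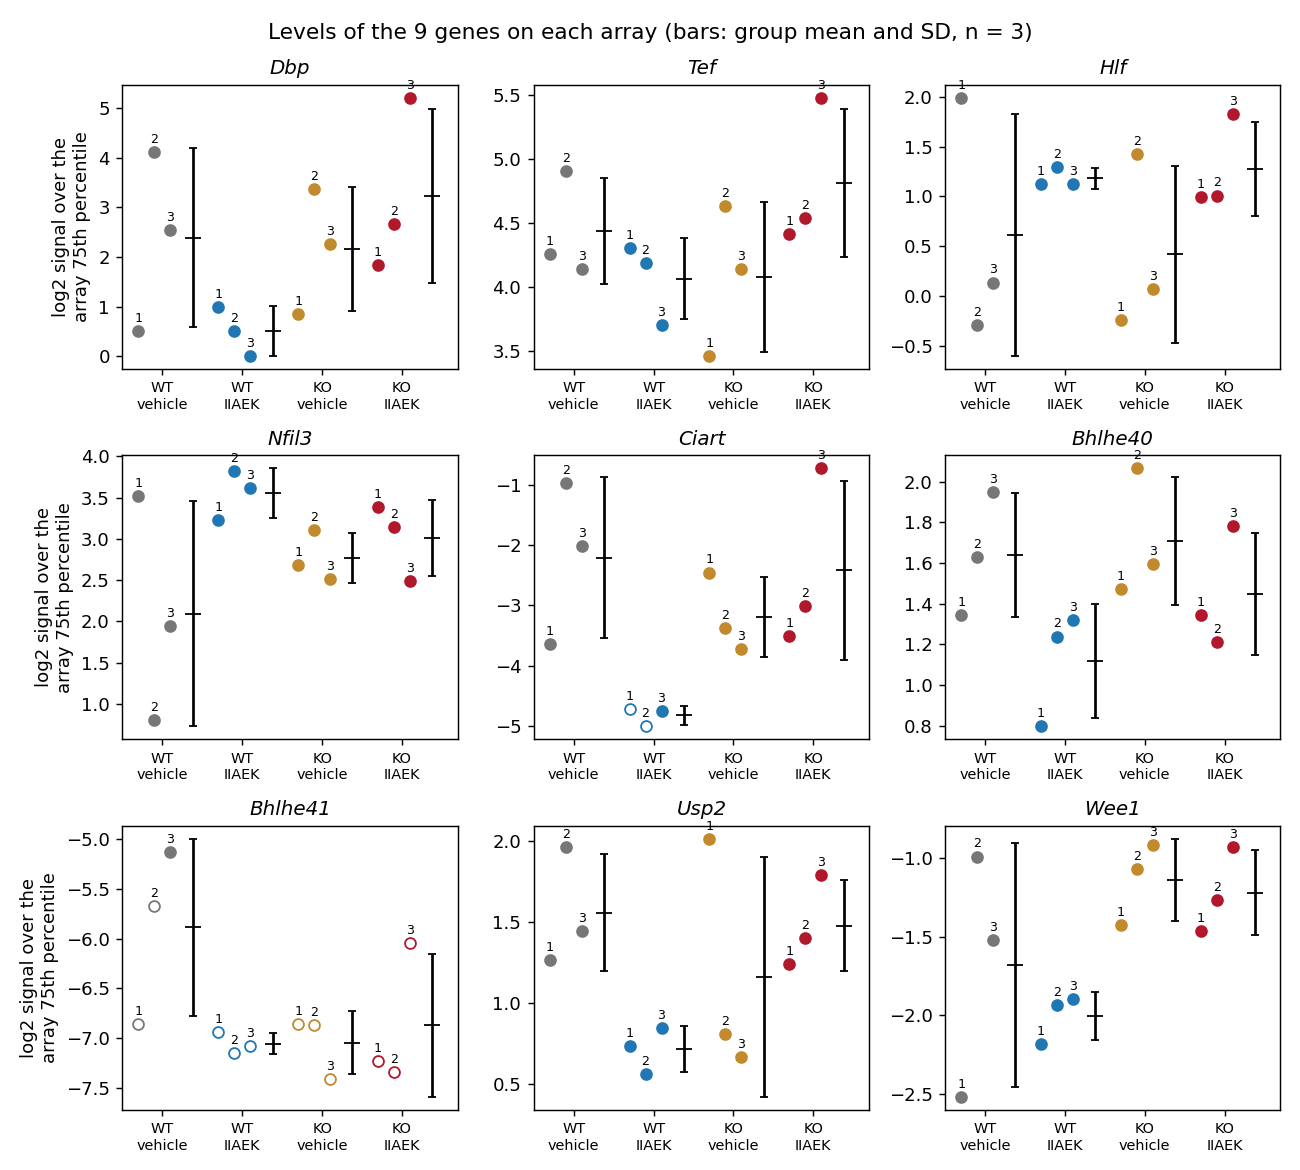
Level of each of the 9 genes on each array (y axis, log2 signal over the array's 75th percentile) by group, with the replicate number above each point, open circles for arrays on which the probe was not well above background, and bars for the mean and SD of 3 mice. In Dbp the 3 wild-type mice given IIAEK sit between 0.0071 and 1.0 and the 3 knockout mice given IIAEK between 1.85 and 5.21.

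The comparison of the genotypes under IIAEK asks whether livers without the phosphatase differ once the peptide is given. Dbp was 2.73 log2 units higher in the knockout (SE 1.01, 6.64-fold), Ciart 2.41 (SE 0.75), Wee1 0.79 (SE 0.33, 1.72-fold), Usp2 0.76 (SE 0.33, 1.70-fold) and Tef 0.75 (SE 0.36, 1.68-fold). The Ciart size is uncertain, since only 1 of the 3 wild-type arrays under IIAEK measured it: with another background correction (normexp) it was 0.83, and Wee1 was then at 0.52. Bhlhe40 was 0.33 higher, Hlf stood at 0.10 and Nfil3 at -0.54. None of the 8 tested genes passed limma's test at a Benjamini-Hochberg adjusted p of 0.05 over all tested genes: the adjusted p was 0.628 for Dbp, Ciart, Wee1, Usp2 and Tef and 0.763 for Nfil3. Over all genes 0.00757% passed. At limma's unadjusted threshold of 0.05, which adds no call, Ciart, Dbp, Wee1 and Usp2 were higher. These were 4 of 8 genes against 3.3% of all tested genes in that direction and 7.83% in either direction.

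For 5 of the 8 genes, Dbp, Tef, Ciart, Usp2 and Wee1, the 3 knockout mice given IIAEK lay above the 3 wild-type mice given it. The share of all tested genes with such a gap in that direction was 13.0%. The median change of the 8 genes was 0.76 against -0.022 for all tested genes. None of the 4 arrays that stood apart enters these differences between groups, but they enter the spread from which limma took the SE and p-values. With only the groups compared in the fit, 0 of the 8 genes passed. The smallest limma adjusted p was then 0.164, and 5 genes had an unadjusted p under 0.05. The fit of all groups gave 0.628 and 4. Knockout mouse 3 given IIAEK set the size of the largest values: without it the Dbp difference was 1.75, that of Ciart 1.56 and that of Tef 0.42, while Usp2 was at 0.61 and Wee1 at 0.64. The differences had the same sign on both slides, at 0.85 and 3.67 for Dbp, 1.20 and 3.01 for Ciart, 0.72 and 0.82 for Wee1, 0.51 and 0.89 for Usp2 and 0.11 and 1.07 for Tef, with 1 array a group on the first slide.

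Red blood cell markers differed alongside. Of the 7 tested, 6 were lower in knockout mice given IIAEK, with a median change of -1.71, and their summed log2 level was 8.19 to 8.49 there against 8.94 to 10.45 in wild-type mice given IIAEK. Their part in the differences of Dbp, Ciart, Tef, Usp2 and Wee1 was not tested. Of 9 stellate cell markers 8 were higher in the knockout, with a median of 0.60. Of 9 hepatocyte markers 8 were lower in the knockout, with a median of -0.17, and their summed levels overlapped, at 12.30 to 12.52 against 12.48 to 12.70. Of 6 tested intestinal markers 3 were higher and 3 lower. The summed level of all 10 on the array was lower in the knockout, at 6.91 to 7.28 against 7.39 to 7.48. The part of the stellate cell, hepatocyte and intestinal markers was not tested either.

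The comparison of IIAEK with vehicle in wild-type mice asks what the peptide does to these genes in normal liver. The log2 change, IIAEK minus vehicle, was -2.62 for Ciart (SE 0.75), -1.88 for Dbp (SE 1.01), -0.84 for Usp2 (SE 0.33) and -0.52 for Bhlhe40 (SE 0.24), and 1.46 for Nfil3 (SE 0.54). The size for Ciart rests on a group in which 1 of 3 arrays measured it, and it was -1.0 with the normexp background correction. Tef stood at -0.37, Wee1 at -0.33 and Hlf at 0.57. None of the 8 passed limma's test, with adjusted p = 0.393 for Ciart, Nfil3, Usp2 and Bhlhe40 and 0.415 for Dbp, and over all genes 0.00379% passed. Ciart, Nfil3 and Usp2, 3 of 8 genes, were past the unadjusted threshold, against 12.6% of all tested genes.

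The 3 wild-type mice given IIAEK lay below the 3 vehicle mice in Ciart, Bhlhe40 and Usp2, against 5.7% of all genes in that direction. The median of the 8 changes was -0.45 beside 0.046 over all tested genes. The wild-type mice given IIAEK are the same 3 as in the comparison of genotypes under IIAEK. The values depended on which vehicle mice entered. On the first slide, which holds wild-type vehicle mouse 1, Dbp differed by 0.50 and Nfil3 by -0.29, and on the second slide by -3.07 and 2.34. Ciart, Usp2 and Bhlhe40 had the same sign on both slides, at -1.08 and -3.39, -0.53 and -1.0, and -0.55 and -0.51. Without wild-type vehicle mouse 1, Nfil3 (2.18) and Ciart (-3.33) passed limma's test with adjusted p = 0.0294 each, as did 3939 of all genes. With all 4 outlying vehicle arrays removed, wild-type vehicle mouse 1 was the lone control, assumed to vary like the other groups, and Dbp was at 0.0021, Nfil3 at 0.03 and Ciart at -1.19.

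Markers of other cells differed in the same comparison. All 11 macrophage markers were lower under IIAEK (median -0.68), with a summed log2 level of 7.19 to 8.25 against 7.52 to 9.04 under vehicle. All 9 stellate cell markers were lower (median -0.81), at 6.82 to 7.11 against 6.97 to 8.34, as were all 7 cholangiocyte markers (median -0.91). Of 6 tested intestinal markers 5 were lower, with a median of -3.22, although the summed level of all 10 on the array was higher, at 7.39 to 7.48 against 6.63 to 7.07. Of 12 tested pancreatic markers 11 were lower, with a median of -0.86, and their summed level was highest in wild-type vehicle mouse 1, at 5.36. Every macrophage, stellate cell, cholangiocyte and intestinal marker was well above background on at least 1 array. All 11 macrophage and 9 stellate cell markers were so on all 12 arrays. For cholangiocyte markers this held for 5 of 7, for pancreatic markers 8 of 16 and for intestinal markers 2 of 10. The size of the intestinal median is therefore uncertain. Hepatocyte markers overlapped, at 12.48 to 12.70 against 11.98 to 12.86. The part of these markers in the values of Ciart, Usp2, Bhlhe40 and Nfil3 was not tested.

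In the knockout, the comparison of IIAEK with vehicle placed the PAR bZIP genes on the higher side. Tef was 0.74 higher (SE 0.36), Hlf 0.86 higher (SE 0.57) and Dbp 1.08 higher (SE 1.01), with limma's adjusted p at 0.664 for Tef and Hlf and 0.702 for Dbp. Knockout mouse 3 given IIAEK and knockout vehicle mouse 1 carried much of this: without the former Dbp was at 0.095, Tef at 0.40 and Hlf at 0.58, and without the latter at 0.43, 0.43 and 0.53. Ciart stood at 0.77, Usp2 at 0.32, Nfil3 at 0.24, Wee1 at -0.08 and Bhlhe40 at -0.26. No gene of the 8 passed, beside 0.0% of all tested genes, and none reached an unadjusted p under 0.05, beside 6.29%. No gene had groups that did not overlap, beside 15.0% of all. Ciart and Usp2 changed sign between slides, from -1.05 to 1.68 and from -0.77 to 0.86.

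The comparison of the genotypes under vehicle gave no difference beyond the spread between mice. Wee1 had the largest difference relative to its error, 0.54 higher (SE 0.33, limma adjusted p = 0.737). Nfil3 stood at 0.68, Bhlhe40 at 0.07, Hlf at -0.19, Dbp at -0.23, Tef at -0.36, Usp2 at -0.40 and Ciart at -0.98. None passed, beside 0.00379% of all genes, none reached an unadjusted p under 0.05, beside 6.62%, and none had groups apart, beside 8.44%. Between the slides Hlf went from -2.23 to 0.82, Nfil3 from -0.84 to 1.44 and Ciart from 1.18 to -2.06.

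The interaction asks whether the response to IIAEK differs between genotypes. Ciart gave 3.39 log2 units (SE 1.06), Usp2 1.16 (SE 0.47), Tef 1.11 (SE 0.51) and Dbp 2.96 (SE 1.43), each with the knockout response the higher. All 8 had an adjusted p of 1.0 by limma, no gene on the array passed (0.0%), and Ciart and Usp2 were past the unadjusted threshold, 2 of 8 beside 1.56% of all. The interaction is built from the same 4 group means as the other comparisons, so it is not separate evidence. Averaged over genotypes, IIAEK against vehicle gave 0.85 for Nfil3 (SE 0.38, limma adjusted p = 0.216) and -0.39 for Bhlhe40 (SE 0.17, limma adjusted p = 0.205). Again 0 of 8 passed beside 0.0% of all genes, and 2 of 8 had an unadjusted p under 0.05 beside 22.8% of all.

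**Figure D2:**
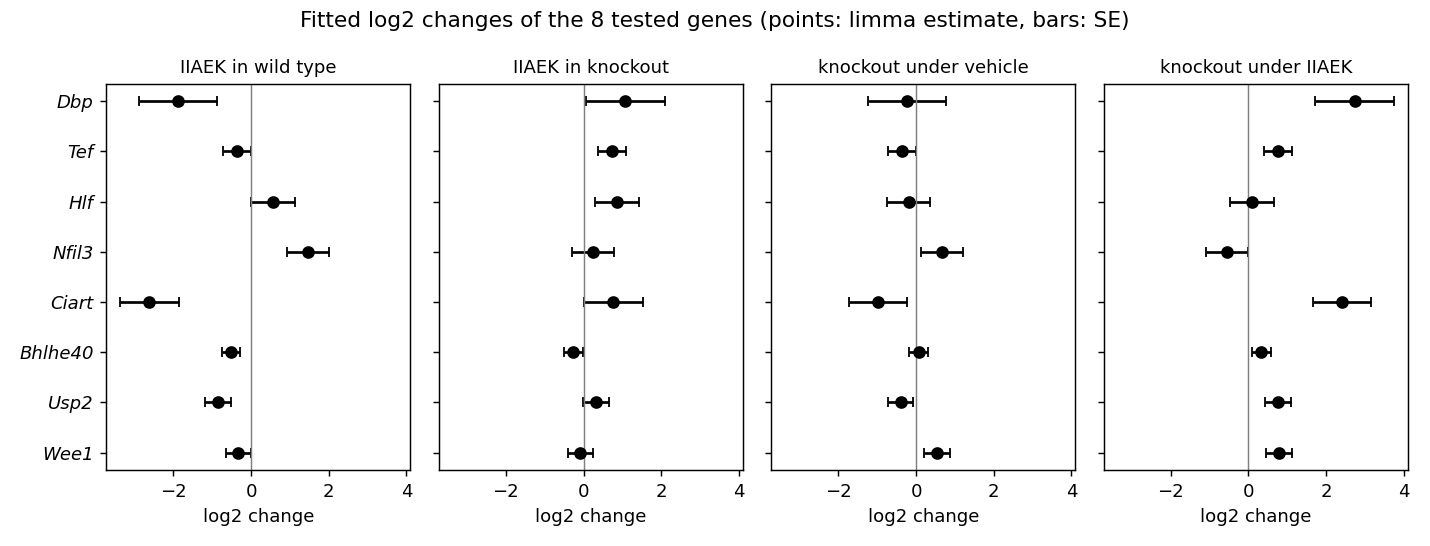
Fitted log2 change (x axis; points are limma estimates and bars are SE) of the 8 tested genes in 4 comparisons of groups of 3 mice. Under IIAEK the knockout minus wild-type difference is 2.73 for Dbp and 2.41 for Ciart, and no gene passed limma's test at an adjusted p of 0.05 in any panel.

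Where a gene had more than 1 usable probe, the probes gave the same sign in the comparisons of IIAEK within wild type and of the genotypes under IIAEK. The second Dbp probe stood at -1.97 for IIAEK in wild type and 2.55 for the genotypes under IIAEK. Nfil3's second probe stood at 1.44 and -0.51, and that of Usp2 at -0.81 and 0.86. The 3 Tef probes stood at 0.75, 0.80 and 0.39 for the genotypes under IIAEK, the lowest from a probe that was well above background on 10 arrays. The second probes of Ciart and Wee1 were well above background on 2 and 1 arrays and add no measurement.

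Several of these genes differed widely between mice of the same group. The SD between mice of a group, pooled over the 4 groups, was 1.43 log2 units for Dbp, at the 99.1 percentile of tested genes, and 1.06 for Ciart, at the 97.4 percentile. Hlf (0.787) and Nfil3 (0.752) stood at the 93.7 and 92.9 percentiles. Tef (0.489), Usp2 (0.442) and Wee1 (0.439) stood between the 75.9 and 80.5 percentiles, and Bhlhe40 (0.299) at 52.0, next to the median gene at 0.291.

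**Figure D3:**
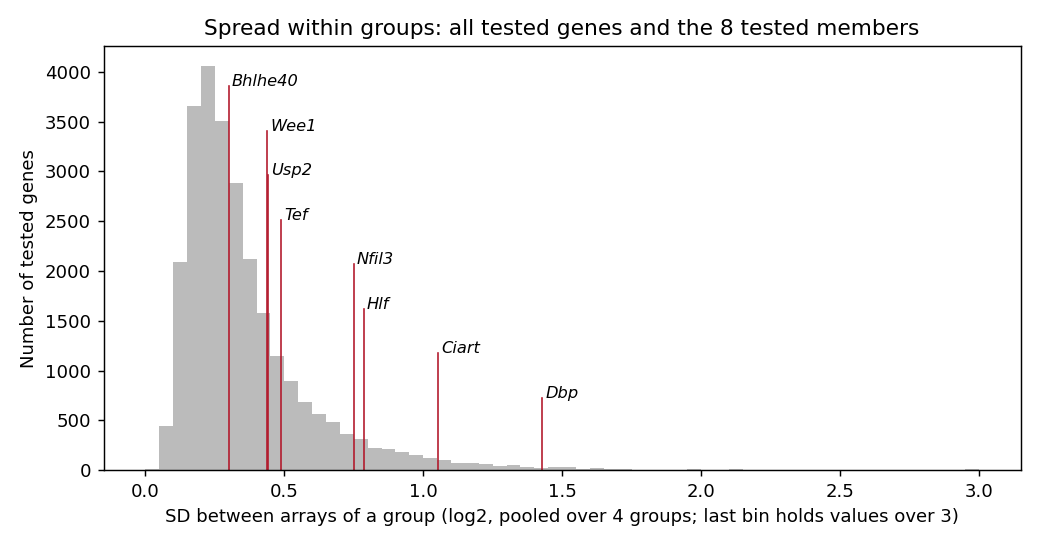
Number of tested genes (y axis) by the SD between arrays of a group (x axis, log2 units, pooled over 4 groups), with red lines at the 8 genes. Dbp lies at 1.43 and Ciart at 1.06, in the right tail, and Bhlhe40 at 0.299 lies near the median of 0.291.

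Tef deviated with Dbp from mouse to mouse. After the group means were removed, the Pearson r of each gene with Dbp over the 12 arrays was tested exactly over all 1296 arrangements of the deviations within their groups, two-sided, for which the smallest possible p is 0.00077. Tef gave r = 0.877 (exact permutation p = 0.00463, adjusted 0.0324 over 7 relations) and Spearman rho = 0.804 (exact permutation p = 0.0108, adjusted 0.0756), so r passed after adjustment and rho did not. Wee1 gave r = 0.814 (exact permutation p = 0.0208, adjusted 0.0728) and rho = 0.797 (exact permutation p = 0.0332, adjusted 0.116). Ciart gave r = 0.730 (exact permutation p = 0.0849, adjusted 0.149) and rho = 0.685 (exact permutation p = 0.0910, adjusted 0.157). Nfil3 was on the opposite side, with r = -0.728 (exact permutation p = 0.0571, adjusted 0.133) and rho = -0.727 (exact permutation p = 0.0579, adjusted 0.135).

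The other 3 genes lay nearer to 0. Bhlhe40 gave r = 0.583 (exact permutation p = 0.114, adjusted 0.160) and rho = 0.546 (exact permutation p = 0.112, adjusted 0.157). Usp2 gave r = 0.114 (exact permutation p = 0.752, adjusted 0.877) and rho = 0.217 (exact permutation p = 0.552, adjusted 0.644). Hlf, although of the same family as Dbp and Tef, gave r = -0.062 (exact permutation p = 0.896, adjusted 0.896) and rho = -0.035 (exact permutation p = 0.932, adjusted 0.932). The test as first planned permuted the 12 deviations freely over 100000 draws, which ignores that they sum to 0 within each group. It gave smaller values, with adjusted p = 0.0021 for the r of Tef and of Wee1, 0.0123 for Nfil3 and 0.0128 for Ciart by permutation.

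The 2 mice farthest from the median Dbp deviation were knockout mouse 3 given IIAEK and wild-type vehicle mouse 1. With their deviations left out, r was 0.916 for Tef and 0.763 for Wee1, and -0.586 for Nfil3 and 0.466 for Ciart. Bhlhe40 was then at 0.362, Usp2 at -0.169 and Hlf at 0.202. The group means behind the remaining deviations still included these 2 mice, so these values do not show the relations without them. Within the second slide (8 arrays) r was 0.973 for Tef, 0.937 for Ciart, 0.719 for Wee1, -0.574 for Nfil3, 0.547 for Bhlhe40, 0.782 for Usp2 and 0.565 for Hlf. The first slide holds 1 array a group and gives no such value. On the second slide deviations were taken from the means of its 2 arrays a group. The 2 deviations of a group are then equal and opposite, so each r rests on only 1 difference per group. On the levels of the 8 arrays other than the 4 that stood apart, r with Dbp was 0.947 for Tef, 0.908 for Ciart, 0.871 for Wee1 and -0.925 for Nfil3. Usp2 was at 0.666, Bhlhe40 at 0.654 and Hlf at 0.271. Group means were not removed from these levels, and every wild-type mouse among them lay below every knockout mouse in Dbp. These values therefore include the difference between genotypes and do not show how mice of a group vary together.

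**Figure D4:**
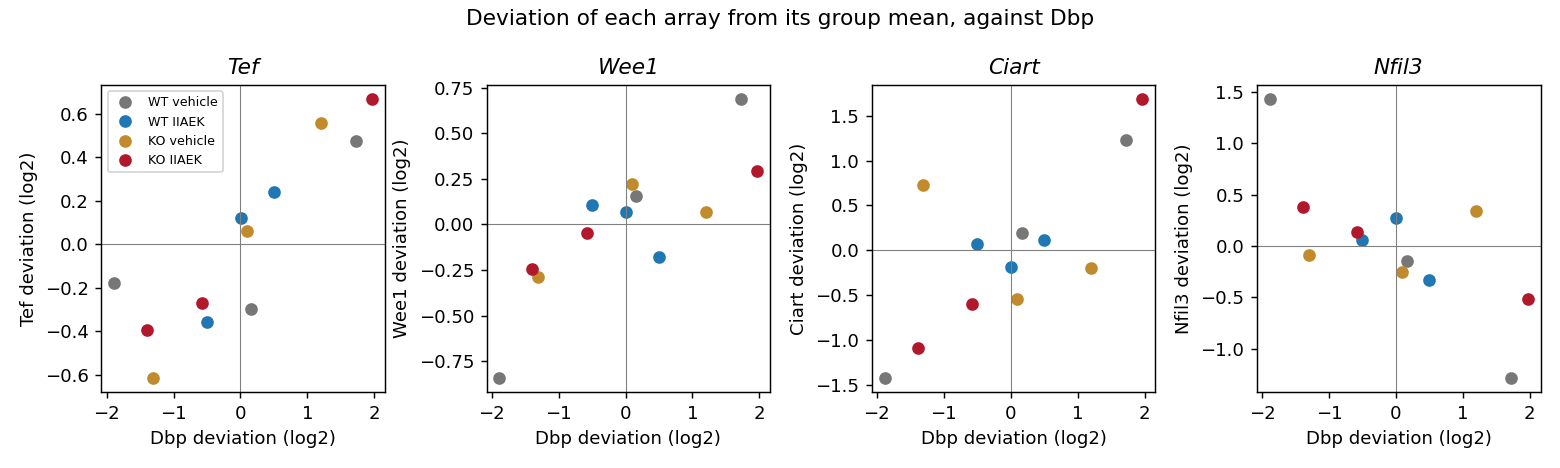
Deviation of each of 12 arrays from its group mean (log2 units) for Tef, Wee1, Ciart and Nfil3 (y axes) against that of Dbp (x axes), coloured by group. Points run upward for Tef (r = 0.877), Wee1 (0.814) and Ciart (0.730) and downward for Nfil3 (-0.728).

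The genes outside the 9 whose levels were most like Dbp over the 12 arrays, by Pearson r and given as a description, included 2 clock genes. Per3, a repressor of the core loop, had r = 0.902, and Nr1d2 (REV-ERB beta), a nuclear receptor that represses Arntl and Nfil3, had r = 0.843. The other 3 of the closest 5 were transcripts not matched to a gene symbol here, at 0.983, 0.847 and 0.825. Whether any of them belongs to 1 of the 9 genes is not known. Only 2 tested genes or unmatched transcripts, Per3 and the one at 0.983, exceeded r = 0.9 with Dbp. For Nfil3 there were 67, led by Clpx (0.952), Elmod3 (0.945), Pnrc1 (0.945), Lrfn3 (0.943) and B3gat3 (0.941).

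In the core clock list 18 of 20 names were tested (ARNTL was listed under both its names), and 0 passed limma's test in any of the 6 comparisons. Over the 12 arrays 11 of 18 had a positive r with Dbp and 7 a negative one. Arntl, the activator of the loop, had r = -0.64. It was at 1.45, -0.85 and 0.54 in wild-type vehicle mice 1, 2 and 3, so mouse 2, second in Dbp, was lowest in Arntl. Noct, the rhythmic phosphatase nocturnin, stood at -2.40 for IIAEK in wild type (SE 0.63, limma adjusted p = 0.393). For IIAEK in wild type 5 of 18 were higher and 2 lower at an unadjusted p under 0.05, beside 12.6% of all tested genes. For the genotypes under IIAEK 2 were higher and 0 lower, beside 7.83%, both shares in either direction. The list's medians were 0.28 and 0.20 in these comparisons, beside 0.046 and -0.022 over all tested genes.

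Of 10 known liver targets of the PAR bZIP proteins, all tested, 0 passed in any comparison. For the genotypes under IIAEK, in which Dbp and Tef stood highest, 4 of the targets were higher and 6 lower, with a median of -0.03. Cyp7a1, which starts the conversion of cholesterol to bile acids, stood at 2.60 there (SE 1.26, limma adjusted p = 0.628). For IIAEK in wild type it stood at -5.08 (SE 1.26, limma adjusted p = 0.393). Its probe was well above background on 10 of 12 arrays. In wild-type mice given IIAEK it was at -5.66, -3.67 and -7.14, mice 1 and 3 being the lowest of all 12. Both sizes are therefore uncertain. Por, the reductase that supplies electrons to cytochromes P450, stood at -0.96 for IIAEK in the knockout (SE 0.24, limma adjusted p = 0.664).

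Among 10 genes of G2/M control, the step that WEE1 holds back, 10 of 10 were higher in the knockout under IIAEK. Their median was 1.0, beside -0.022 over all tested genes. Under vehicle 9 of 10 were higher, with a median of 1.46 beside -0.053, but 0 passed in either comparison. Plk1, a mitotic kinase, stood at 1.67 (SE 0.64, limma adjusted p = 0.628) and 2.23 (SE 0.64, limma adjusted p = 0.737). Both comparisons have Wee1 on the same side, at 0.79 and 0.54. Wild-type vehicle mouse 1 was the lowest of all 12 in every gene of this list, as in Wee1, which shifts the vehicle differences upward. Plk1 was at -2.77 in that mouse, against -1.26 and 0.10 in wild-type vehicle mice 2 and 3. Of 12 glucocorticoid-responsive genes, which also follow the time of day in liver, 0 passed. For the genotypes under IIAEK, 3 were higher and 9 lower with a median of -0.13, led by Zbtb16 at -1.12 (SE 0.31, limma adjusted p = 0.628), and Tat stood at -1.14 for IIAEK in wild type (SE 0.33, limma adjusted p = 0.393). Of 11 bZIP and bHLH relatives of the 9 genes 0 passed. For IIAEK in wild type 3 were higher and 8 lower with a median of -0.39, led by Cebpd, an acute-phase activator, at -1.48 (SE 0.44, limma adjusted p = 0.393).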

How the data were processed

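Liver RNA of 12 mice was measured on one-colour Agilent arrays, scanned and extracted with Agilent Feature Extraction 10.7.3.1, per the file headers. The deposited scanner files hold the processed signal, a background-subtracted intensity of each spot on a linear scale, and flags (other values) for spots well above background or saturated. The authors' deposited value table holds log2 values, which matched log2 of the processed signal minus each array's 75th percentile, centred on each probe's median. That scaling was used here without the centring. Spots of 1 probe were averaged, 32994 of 56605 probes were named through RefSeq transcripts, and the probe with the highest mean stood for a gene. The labels carry 14 days of dosing in titles and design, which was used.

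Testing required signal well above background in every mouse of some group, which Bhlhe41 did not meet. limma 3.58.1 in R 4.3.3 fitted 1 mean per group over all 12 arrays (8 residual degrees of freedom), with Benjamini-Hochberg adjustment over 26405 genes and two-sided tests. Correlation p-values came from all 1296 arrangements within groups, a test added after seeing the data because the planned 100000 free permutations ignore the groups. Besides the 9 genes, the text names from each pathway list genes among the 2 with the smallest p in a comparison, and the 5 genes most like Dbp and like Nfil3; 1 gene under this rule is not reported here. The genes, lists and tests were chosen with earlier results of these data known. The labels number 3 replicates per group without saying more of their source, so p-values measure only the spread between these samples, which may in part be technical. The number of arrays limits the precision. Alternatives were another background correction, scaling, probe rule, filter, variance model, array weights, slide and replicate blocks, the deposited table, and arrays left out. The fit was tested on simulated data.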

Additional observations from a re-analysis of the deposited data

How the results depend on the processing

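Over the 6 comparisons no tested gene of the 8 passed an adjusted p of 0.05 by limma, and most alternatives left that count at 0. For IIAEK in wild type the count ranged from 0 to 2 when 1 array was left out: without wild-type vehicle 1, Nfil3 (2.18) and Ciart (-3.33) passed with adjusted p = 0.0294, as did 3939 of all genes. For IIAEK averaged over genotypes it ranged from 0 to 2 in the same way (without wild-type vehicle 1, Hlf at 1.06 and Nfil3 at 1.21). There array weights gave 2 (Hlf 1.03, Nfil3 1.21; 7556 of all genes), and leaving out wild-type vehicle 1 and 2 gave 1 (Nfil3 0.92, adjusted p = 0.0496). For the genotypes under IIAEK none of 28 alternatives called a gene, and the smallest adjusted p was 0.0917. Of 960 changes recomputed, 915 kept direction and call, 38 reversed and 7 came to pass the threshold. The cause was not tested.

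Leaving out the 4 vehicle arrays that stood apart keeps 1 vehicle mouse per genotype, wild-type mouse 1 and knockout mouse 2. The changes from that fit therefore rest on single vehicle mice. In it log2 changes reversed for IIAEK in wild type to 0.0021 (Dbp), -0.81 (Hlf) and 0.52 (Wee1). For IIAEK in the knockout they reversed to -0.13 (Dbp), -0.15 (Hlf) and -0.10 (Nfil3), and for the genotypes under vehicle to 2.86 (Dbp), 0.38 (Tef), -0.41 (Nfil3) and 0.25 (Ciart). Averaged over genotypes they reversed to -0.0079 (Tef), -0.48 (Hlf), -0.032 (Nfil3), 0.060 (Usp2) and 0.18 (Wee1). Without the 2 arrays highest in Dbp, an alternative chosen after seeing the data, Wee1 in wild type was at 0.016, Ciart in the knockout at -0.073, Dbp under vehicle at 0.63 and Hlf under IIAEK at -0.18. With the mean over probes Wee1 was at 0.19 in the knockout and 0.042 averaged. Hlf under vehicle was at 0.82 on slide 2 alone and 0.28 without wild-type vehicle 1 and 2, where Bhlhe40 was at -0.24. Array weights put Bhlhe40 under vehicle at -0.12 and Hlf under IIAEK at -0.024. Leaving out 1 array gave -0.75 to 0.016 (Wee1, wild type), -0.073 to 1.32 (Ciart, knockout), -0.23 to 0.041 (Wee1, knockout), -1.17 to 0.63 (Dbp, vehicle), -0.70 to 0.49 (Hlf, vehicle), -0.11 to 0.22 (Bhlhe40, vehicle), -0.18 to 0.24 (Hlf, under IIAEK) and -0.89 to 0.029 (Dbp, averaged).

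Deviations of same-numbered replicates correlated with r between -0.546 and 0.645, of either sign. These values cannot decide whether the numbers pair the mice, since the vehicle arrays that stood apart weigh in them. Replicate 1 of every group also shared a slide. With the replicate block 0 of the 8 genes passed in each comparison. Weak signal limits Ciart in wild-type mice given IIAEK and Bhlhe41 throughout.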
